A study of Mus musculus with 29 samples.

Results

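Calcineurin, the calcium and calmodulin-dependent kinase CaMKII and the class II histone deacetylases were followed through 10 genes in the failing and recovering mouse heart. The genes were taken by symbol from the deposited expression table as Rcan1, Ppp3ca, Ppp3cb and Nfatc3 of the calcineurin pathway, Camk2a, Camk2b, Camk2d and Camk2g for CaMKII, and Hdac4 and Hdac9. They are 10 of the 29955 genes in the table, and all 10 passed the filter of a mean of at least 0.5 FPKM that left 12759 genes for testing. FPKM counts sequenced fragments divided by transcript length and by the number mapped in that library, so that it is already a level per length, and levels of different genes can be set side by side.

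Calcineurin is a phosphatase that calcium and calmodulin switch on. It removes phosphate from NFAT transcription factors, which then enter the nucleus and are known to act in cardiac hypertrophy. CaMKII is switched on by the same calcium signal, phosphorylates channels, pumps and regulators of calcium handling, and also phosphorylates class IIa deacetylases such as HDAC4. Phosphorylated HDAC4 leaves the nucleus and releases MEF2, a transcription factor that it otherwise holds repressed.

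RNA was sequenced from hearts of male C57BL/6J mice that were 3 months old at the start. Heart failure (HF) was induced for 5 weeks with L-NAME, which blocks nitric oxide synthase, in the drinking water at 0.3 mg/ml together with NaCl at 1%, and with angiotensin II at 0.7 mg/kg/day from an osmotic pump placed after the first week that ran for 28 days. HF week 3 and HF week 5 hearts were taken during this induction, with 2 and 3 libraries. Recovery hearts were taken after the agents had ended, at study week 7 (2 libraries), week 9 (2), week 11 (3), week 13 (2) and week 19 (5). Control week 19 mice (5 libraries) were untreated and matched in age to Recovery week 19. They were therefore 14 weeks further on than the HF week 5 mice, and in any comparison with HF made here the effect of the agents and that of age cannot be told apart. They were also older than the mice of Recovery weeks 7 to 13, so the same holds for comparisons of those weeks with them. Week 5 controls are labelled in the series but were not used here, because more columns carry their name than there are labelled samples. The labels call the tissue whole heart and whole ventricle, whereas the methods describe apical portions. The labels do not say that each library is 1 animal, so p-values measure the spread between these libraries. In such bulk tissue, fewer cells of a type and less RNA per cell cannot be told apart.

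The 24 libraries had between 12816 and 18091 genes above 0. HF week 3 library 1 had the 12816, against 16339 to 18091 in the others, and its values correlated with those of HF week 3 library 2 at 0.885, against mean correlations of 0.954 to 0.990 within the other groups. The absolute depth is unknown. Relative to Control week 19 library 1, the depth of 23 libraries ranged from 0.729 to 1.40, and that of HF week 3 library 1 could not be obtained. Against the ventricle label, the summed level of 4 atrial genes was 7737 and 14050 FPKM in the HF week 3 libraries and 39730 FPKM in HF week 5 library 1. It was 415 and 15.5 FPKM in the other HF week 5 libraries and 3.04 to 13.4 FPKM in all control and recovery libraries. Among these genes Myl7, an atrial myosin light chain, reached 18388 FPKM in HF week 5 library 1. Differences of the 10 genes that passed a test and rest on HF week 5 library 1 are given with and without it, and those of the pathway lists as counts. The summed level of 7 cardiomyocyte genes lay between 25286 and 52856 FPKM in all libraries, with the lowest in HF week 5 library 1. Myh6, the adult cardiac myosin heavy chain, was left out of that sum because it is listed at 0 in every HF week 5, Control week 19 and Recovery week 19 library. In HF week 3 and Recovery weeks 7 to 13 it is above 0, and the sum with it was 74921.5 to 369051 FPKM. Comparisons of those groups with HF week 5 or Control week 19 cross this difference between columns, and its part was not tested.

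Start-site windows were available for 7 of the 10 genes, in 10 windows of 300 bases that run from 250 bases before to 50 bases after each RefSeq start site. They are given on the GRCm38.p6 build, which is a later build than the one the authors aligned to. The Rcan1 windows are shown because Rcan1 is known as a target of the calcineurin pathway that it regulates, with an upstream start and an internal start. The internal one is known from other work for NFAT sites. The Ppp3cb window is shown because it holds the most GGAAA matches of the 10. Capitals mark 3 motifs. The core letters of an NFAT site were searched as GGAAA, which reads TTTCC where it lies on the opposite strand. An AP-1 site was searched as TGACTCA on both strands. A cAMP response element was searched as TGACGTCA, which reads the same on both. No matches overlapped. The upstream Rcan1 window lies at chr16:92466120-92466419, the internal one at chr16:92400029-92400328 and the Ppp3cb window at chr14:20546524-20546823, all on the minus strand.
Rcan1 upstream start: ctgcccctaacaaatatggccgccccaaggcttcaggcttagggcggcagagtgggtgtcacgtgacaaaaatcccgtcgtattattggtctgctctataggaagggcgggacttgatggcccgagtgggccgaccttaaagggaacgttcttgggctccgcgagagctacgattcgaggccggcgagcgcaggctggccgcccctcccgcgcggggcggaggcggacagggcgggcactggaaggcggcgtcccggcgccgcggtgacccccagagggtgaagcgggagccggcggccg
Rcan1 internal start: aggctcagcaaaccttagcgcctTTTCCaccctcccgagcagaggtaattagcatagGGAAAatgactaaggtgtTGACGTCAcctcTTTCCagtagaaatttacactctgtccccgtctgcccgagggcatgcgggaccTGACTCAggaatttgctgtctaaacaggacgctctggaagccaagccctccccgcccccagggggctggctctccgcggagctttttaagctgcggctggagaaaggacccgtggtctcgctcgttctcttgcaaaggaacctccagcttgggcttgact
Ppp3cb start: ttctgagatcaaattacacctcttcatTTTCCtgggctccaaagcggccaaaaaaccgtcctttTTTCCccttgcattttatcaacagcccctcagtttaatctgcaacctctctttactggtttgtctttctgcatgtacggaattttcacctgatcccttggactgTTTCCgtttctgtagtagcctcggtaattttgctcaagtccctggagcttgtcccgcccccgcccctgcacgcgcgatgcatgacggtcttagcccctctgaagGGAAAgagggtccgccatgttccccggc

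The internal Rcan1 window held 3 GGAAA matches, which begin at bases -227, -193 and -163 from the start site, with 1 TGACTCA and 1 TGACGTCA. The upstream Rcan1 window held none of these letters. The Ppp3cb window held 4 GGAAA matches, at -223, -186, -82 and 22. Of all 32851 windows of this length, 61.3% held at least 1 GGAAA and 9.42% held at least 3, while 5.2% held TGACTCA and 1.79% held TGACGTCA. Of the other windows, that of Camk2d and 1 of Nfatc3 held 1 match of GGAAA, the Hdac9 windows held 2 and 1, and those of Hdac4 and Camk2b held none. None of the 10 windows held the MEF2 box, which 3.19% of all windows hold. A match is a run of letters and not a measured site. The deposited value of Rcan1 is 1 per gene, so transcripts from its starts were not separated.

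Over all 24 libraries Rcan1 had the highest mean level of the 10 genes at 38.6 FPKM, above 86.4% of the genes tested. Camk2d followed at 17.8 FPKM, Ppp3cb at 13.3 FPKM, Ppp3ca at 12.7 FPKM, Camk2a at 8.25 FPKM and Camk2g at 8.05 FPKM. In the controls alone Camk2a (10.1 FPKM) and Ppp3ca (9.87 FPKM) stood in the reverse order, within their spread. Camk2b (3.95 FPKM), Nfatc3 (2.81 FPKM), Hdac9 (1.89 FPKM) and Hdac4 (0.900 FPKM) were lowest, and Hdac4 lay above only 8.39% of the genes tested. Across all 8 groups, 8 of the 10 genes differed in limma's F test, against 38.6% of all genes tested, and Nfatc3 (adjusted p value = 0.294) and Hdac9 (adjusted p value = 0.292) did not pass. Without the 3 libraries with high atrial genes, 3 of the 10 and 14.2% of all genes tested passed this test.

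**Figure D1:**
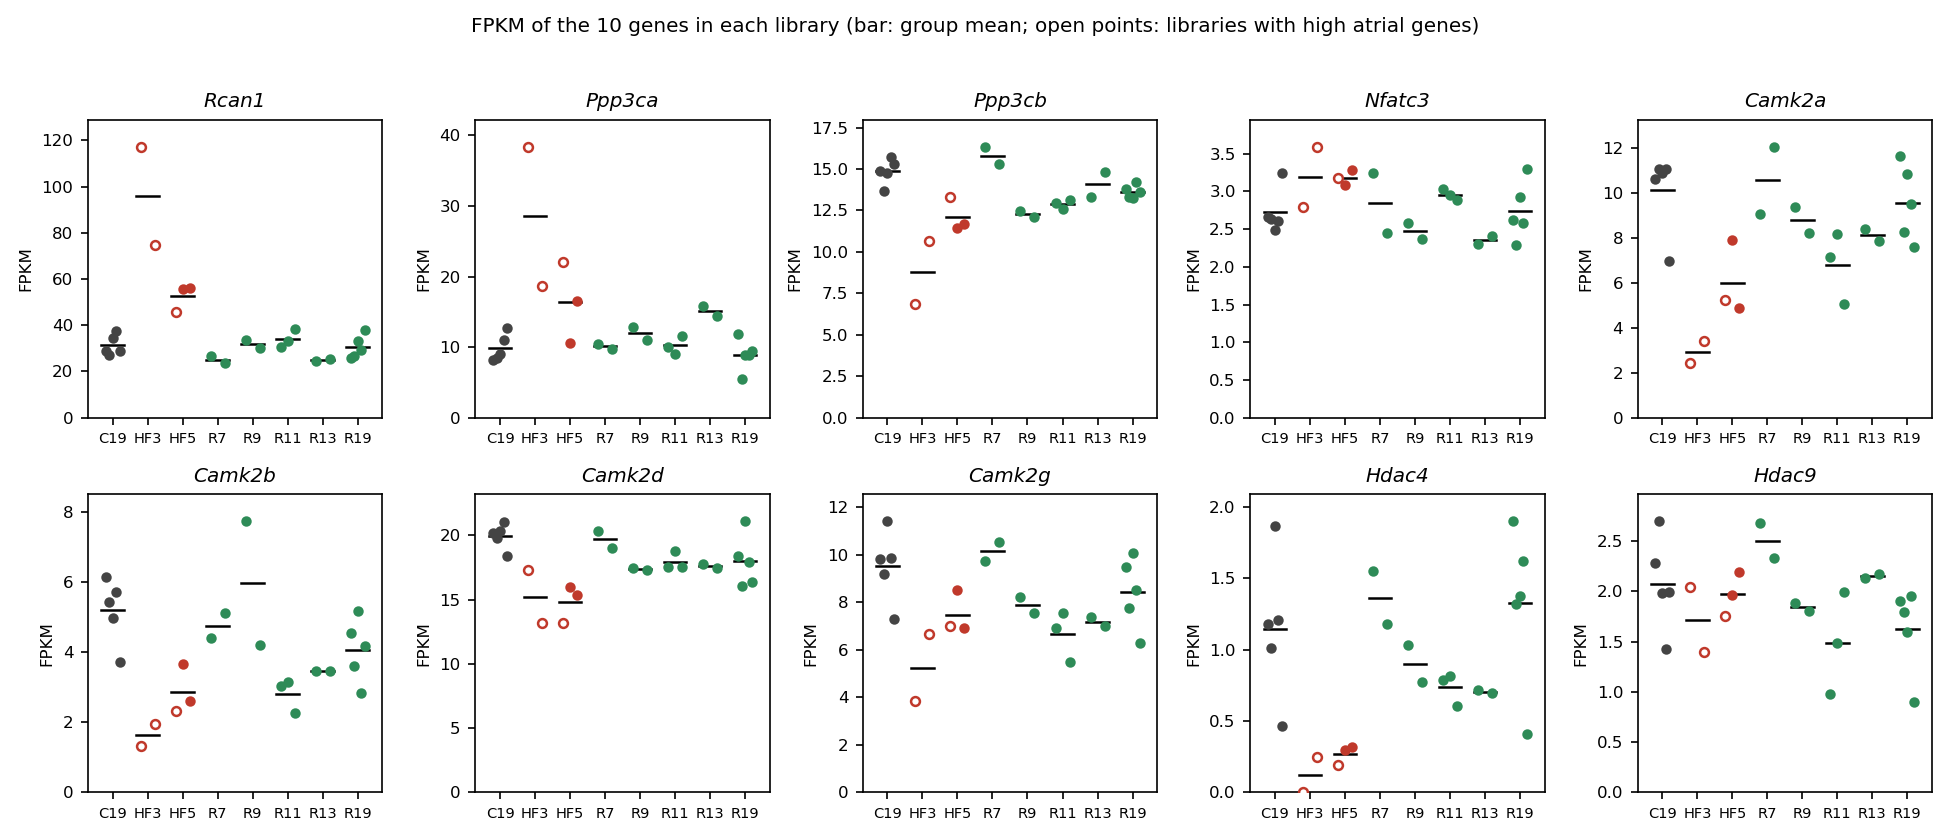
Level of each of the 10 genes in FPKM (vertical axis, linear from 0) in each of the 24 libraries, by group: C19 is Control week 19, HF3 and HF5 are HF weeks 3 and 5, and R7 to R19 are Recovery weeks 7 to 19. Points are libraries, bars are group means and open points are the 3 libraries with high atrial genes; Rcan1 lies between 45.6 and 117 FPKM in all HF libraries and between 23.7 and 38.4 FPKM in all others, and the mean bar of Hdac4 in HF week 3 includes a listed 0.

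The first comparison asked which of the 10 genes differed at the end of the induction, in HF week 5 against Control week 19. Rcan1 was higher, and Camk2a, Camk2b, Camk2d and Hdac4 were lower. This is 1 gene higher where 11.6% of all genes tested were, and 4 genes lower where 12.4% were. The median log2 fold change of the 10 genes was -0.30, beside 0.04 over all genes tested. Fold changes here and below are on the scale of log2(FPKM + 0.5), on which changes of genes at low level are understated. The groups did not overlap for 1 gene that was higher (14.8% of all genes tested) and for 4 that were lower (14.7%), namely Rcan1 above and Ppp3cb, Camk2b, Camk2d and Hdac4 below the controls.

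Rcan1 encodes the regulator of calcineurin that binds and restrains the phosphatase. Its level in the controls was 29.1, 27.2, 34.4, 37.4 and 29.0 FPKM, and in HF week 5 it was 45.6, 55.7 and 56.04 FPKM. Every HF week 5 library lay above every control, and the lowest of them was library 1, which has the high atrial genes. Mean levels were 52.4 ± 5.92 FPKM (SD, n = 3) and 31.4 ± 4.29 FPKM (SD, n = 5). This is a log2 fold change of 0.73 (SE 0.152, limma adjusted p value = 0.00221), and 0.83 without the 3 libraries (limma adjusted p value = 0.000927).

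Ppp3ca and Ppp3cb encode the alpha and beta catalytic subunits of calcineurin. Ppp3ca stood at 22.1, 10.6 and 16.5 FPKM in HF week 5 and at 8.13, 8.45, 9.07, 11.04 and 12.7 FPKM in the controls. The groups overlapped through HF week 5 library 2. Ppp3ca had a log2 fold change of 0.67 (SE 0.241, limma adjusted p value = 0.0505), and 0.43 without the 3 libraries (limma adjusted p value = 0.177). Over the alternatives its adjusted p value ran from 0.0121 without HF week 5 library 2 to 0.320 without library 1. Ppp3cb stood at 13.3, 11.4 and 11.7 FPKM in HF week 5 and at 14.9, 13.7, 14.8, 15.7 and 15.3 FPKM in the controls. All HF week 5 libraries lay below all controls, with library 1 the nearest to them. For Ppp3cb the log2 fold change was -0.29 (SE 0.105, limma adjusted p value = 0.0538), and -0.35 both without the 3 libraries (limma adjusted p value = 0.00379) and without library 1 alone (limma adjusted p value = 0.0621). Nfatc3, an NFAT factor that calcineurin acts on, was at 3.18, 3.09 and 3.28 FPKM in HF week 5 and at 2.49 to 3.25 FPKM in the controls. Its log2 fold change was 0.20, with a 95% confidence interval from -0.05 to 0.44.

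The Camk2 genes encode the subunits of CaMKII. Camk2d, the delta subunit, is known as the main one in heart, the gamma subunit is also widespread, and the alpha and beta subunits are best known from brain. Camk2d was at 20.2, 19.8, 20.3, 21.0 and 18.4 FPKM in the controls and at 13.1, 15.96 and 15.3 FPKM in HF week 5. All HF week 5 libraries lay below all controls, and library 1 was the lowest. For Camk2d the log2 fold change was -0.42 (SE 0.102, limma adjusted p value = 0.00639). Camk2a was at 10.6, 11.1, 10.9, 11.1 and 6.98 FPKM in the controls and at 5.25, 7.91 and 4.90 FPKM in HF week 5. Control library 5 lay below HF week 5 library 2, so the groups overlapped. Camk2a had a log2 fold change of -0.72 (SE 0.191, limma adjusted p value = 0.0109). Camk2b was at 6.15, 5.42, 4.96, 5.71 and 3.71 FPKM in the controls and at 2.33, 3.67 and 2.60 FPKM in HF week 5. Here too control library 5 was the lowest control, just above the highest HF week 5 library. Camk2b had a log2 fold change of -0.76 (SE 0.202, limma adjusted p value = 0.0107). Camk2g was at 9.82, 9.20, 11.4, 9.89 and 7.28 FPKM in the controls and at 6.94 to 8.51 FPKM in HF week 5, and the groups overlapped. Its log2 fold change was -0.32, with a 95% confidence interval from -0.67 to 0.03 (limma adjusted p value = 0.177).

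Hdac4 was at 1.18, 1.01, 1.87, 1.21 and 0.467 FPKM in the controls and at 0.193, 0.295 and 0.315 FPKM in HF week 5. All HF week 5 libraries lay below all controls, with control library 5 the nearest. The mean levels of 0.268 ± 0.0656 FPKM (SD, n = 3) and 1.15 ± 0.503 FPKM (SD, n = 5) are low, and the counting error behind them is unknown. The log2 fold change was -1.05 (SE 0.273, limma adjusted p value = 0.00934). It was -1.67 with a pseudocount of 0.1 and -0.73 with a pseudocount of 1, and the ratio of the mean levels was 0.233. Hdac9, a class IIa deacetylase that also binds MEF2, was at 1.75, 1.97 and 2.19 FPKM in HF week 5, within the controls' 1.42 to 2.70 FPKM. Its log2 fold change was -0.05, with a 95% confidence interval from -0.45 to 0.36.

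All 4 falls lost the threshold when HF week 5 library 1 alone was left out, in a fit that called 820 of 12704 genes lower in place of 1580 of 12759. Camk2a was then at a log2 fold change of -0.64 (limma adjusted p value = 0.0703), Camk2b at -0.64 (limma adjusted p value = 0.0795), Camk2d at -0.34 (limma adjusted p value = 0.0569) and Hdac4 at -0.98 (limma adjusted p value = 0.0547). With all 3 libraries with high atrial genes left out, the fold changes were the same as without library 1. The limma adjusted p values were then 0.0419 for Camk2a, 0.0481 for Camk2b, 0.0158 for Camk2d and 0.0323 for Hdac4. Summed levels of the 8 fibroblast genes were 357 to 707 FPKM in HF week 5 and 253 to 360 FPKM in the controls. Those of the 7 endothelial genes were 369 to 475 FPKM against 257 to 327 FPKM, those of the 5 smooth muscle and pericyte genes 157 to 241 FPKM against 94.4 to 120 FPKM, and those of the 7 leukocyte genes 305 to 581 FPKM against 247 to 425 FPKM. The 5 neuronal genes summed to 3.61 to 4.70 FPKM against 3.91 to 4.55 FPKM, with 1 to 3 of them at 0 in each HF week 5 library. The 5 skeletal muscle genes summed to 10.8, 3.58 and 4.32 FPKM in HF week 5, all above the controls' 1.08 to 3.20 FPKM, and the 4 adipocyte genes to 66.1, 69.9 and 36.7 FPKM against 32.7 to 40.0 FPKM. The 7 cardiomyocyte genes summed to 25286 FPKM in HF week 5 library 1, below the controls' 38566 to 47617 FPKM, and to 46135 and 40981 FPKM in libraries 2 and 3, within them. The part of these cell types in the fold changes of the 10 genes was not tested.

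**Figure D2:**
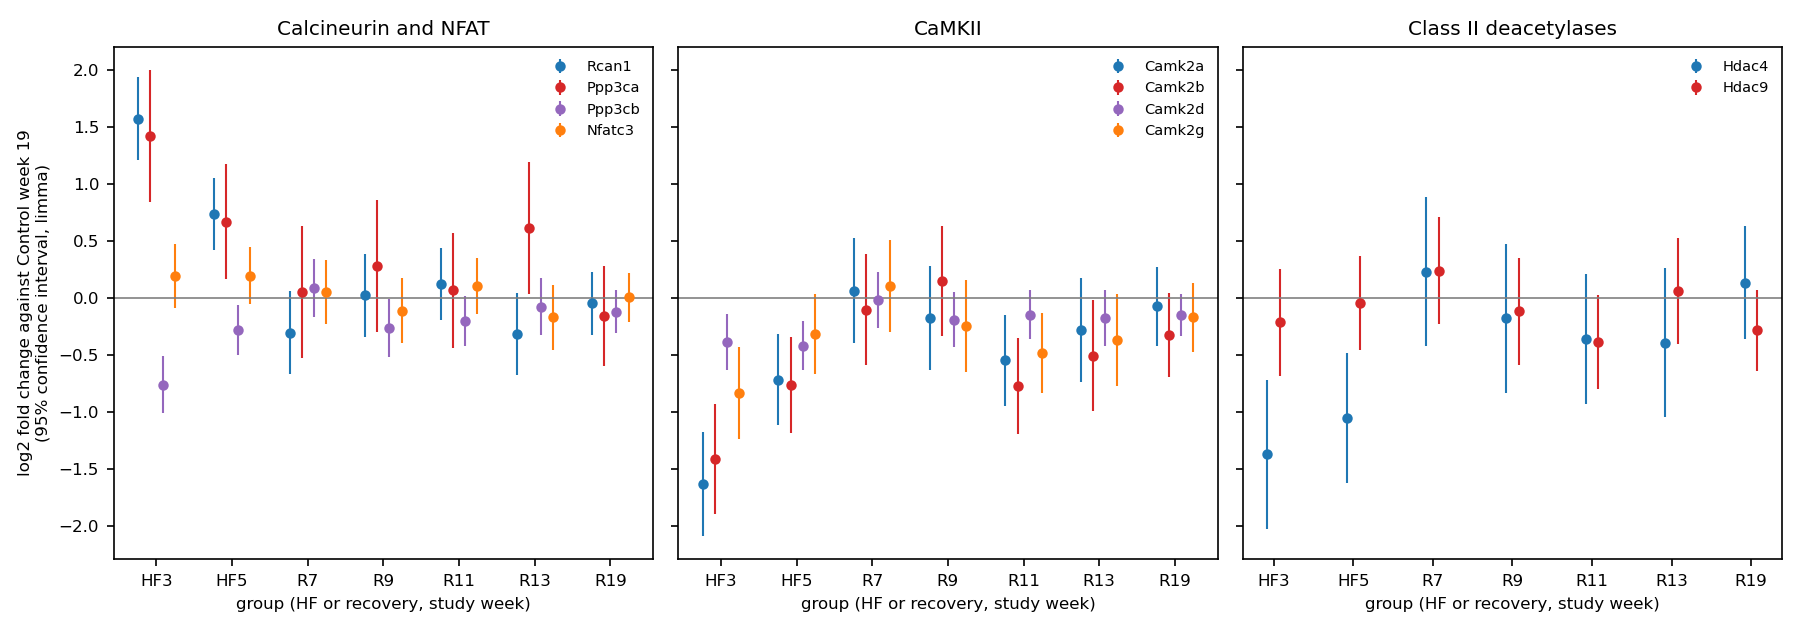
Log2 fold change of each gene against Control week 19 (vertical axis, log2 of FPKM + 0.5) in the 2 HF and 5 recovery groups, with 95% confidence intervals from limma; all 7 sets of points share the same 5 control libraries. Rcan1 is at 1.57 and 0.73 in HF weeks 3 and 5, and its intervals cover 0 in every recovery group.

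HF week 3 asked the same of an earlier time. Of the 10 genes, 2 were higher where 23.1% of all genes tested were, and 6 were lower where 27.6% were, and the groups did not overlap for these 2 and 6 (21.4% and 23.9% of all genes tested). Rcan1 was at 117 and 74.7 FPKM, the highest levels of any library, with a log2 fold change of 1.57 (SE 0.174, limma adjusted p value = 1.29e-06). Ppp3ca was at 38.4 and 18.7 FPKM, with a log2 fold change of 1.42 (limma adjusted p value = 0.000382). Both genes were highest in library 1, the library with few genes above 0, and without it Rcan1 was at 1.25 and Ppp3ca at 0.91 (limma adjusted p value = 0.0387). Ppp3cb was at 6.86 and 10.7 FPKM (log2 fold change -0.76, limma adjusted p value = 5.75e-05), and at -0.46 without library 1 (limma adjusted p value = 0.00325). Camk2a was at 2.45 and 3.41 FPKM (log2 fold change -1.63, limma adjusted p value = 1.05e-05), and Camk2b at 1.32 and 1.94 FPKM (log2 fold change -1.41, limma adjusted p value = 7.83e-05). These were the lowest levels of both genes in any library. Camk2d was at 17.3 and 13.1 FPKM (log2 fold change -0.39) and Camk2g at 3.85 and 6.65 FPKM (log2 fold change -0.83). Hdac4 was listed at 0 in library 1 and was 0.250 FPKM in library 2. An exact 0 in this table can be a failed estimate, as it may be for Myh6. Hdac4 is low in all libraries and library 1 has few genes above 0, and the origin of this 0 was not tested. Without library 1 the log2 fold change of Hdac4 was -1.08. Nfatc3 was at 2.80 and 3.59 FPKM and Hdac9 at 2.04 and 1.39 FPKM, both overlapping the controls. Both HF week 3 libraries have the high atrial genes, so no value without them exists. Without library 1 Camk2g was at -0.47 (limma adjusted p value = 0.107), and without library 2 Camk2d was at -0.20 (limma adjusted p value = 0.195). Marker sums of 6 other cell types lay above all controls in both libraries, at 740 and 747 FPKM for the fibroblast genes, 408 and 517 FPKM for the endothelial genes, 165 and 193 FPKM for the smooth muscle and pericyte genes, 486 FPKM in each for the leukocyte genes, 5.19 and 5.80 FPKM for the neuronal genes and 8.56 and 15.4 FPKM for the skeletal muscle genes. The adipocyte and erythroid sums overlapped the controls. The cardiomyocyte sum, at 37375 and 29182 FPKM, lay below all controls. Their part in the fold changes was not tested.

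Set directly against HF week 5, the HF week 3 libraries had higher Rcan1 (log2 fold change 0.84, limma adjusted p value = 0.00911), lower Ppp3cb (-0.47, limma adjusted p value = 0.0207) and lower Camk2a (-0.91, limma adjusted p value = 0.0163). This is 1 gene higher against 8.28% of all genes tested and 2 genes lower against 13.1%. None of the 3 passed in a fit of these groups alone, where the adjusted p value of Rcan1 and of Camk2a was 0.533 and only 6 genes were higher and 2 lower of the 13113 tested. None passed without HF week 3 library 1 either, with log2 fold changes of 0.51, -0.17 and -0.71 and limma adjusted p values of 0.318, 0.615 and 0.337.

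The next comparison asked what had changed in Recovery week 19 against HF week 5. Rcan1 and Ppp3ca were lower and Camk2a and Hdac4 were higher. These are 2 genes higher where 12.3% of all genes tested were, and 2 lower where 12% were. Rcan1 was at 25.7, 26.5, 33.2, 29.1 and 38.0 FPKM in Recovery week 19. All of these lay below all HF week 5 libraries, and the log2 fold change was -0.78 (SE 0.152, limma adjusted p value = 0.0014). Ppp3ca was at 11.9, 5.51, 8.93, 8.84 and 9.47 FPKM, overlapping HF week 5 through its library 2 only. The log2 fold change was -0.82 (SE 0.241, limma adjusted p value = 0.0185). Hdac4 was at 1.90, 1.32, 1.37, 1.62 and 0.410 FPKM. All 5 libraries lay above all of HF week 5, the fifth by little, and the log2 fold change was 1.18 (SE 0.273, limma adjusted p value = 0.00439). Camk2a was at 11.7, 8.27, 10.9, 9.51 and 7.63 FPKM, overlapping HF week 5 through the last of these. The log2 fold change was 0.64 (SE 0.191, limma adjusted p value = 0.0197). The endothelial sum was 267 to 292 FPKM in Recovery week 19 and 249 to 274 FPKM in Recovery week 7, against 369 to 475 FPKM in HF week 5. The smooth muscle and pericyte sum was 95.2 to 135 FPKM and 98.5 to 98.8 FPKM, against 157 to 241 FPKM, and the skeletal muscle sum 1.41 to 2.61 FPKM and 1.92 to 2.43 FPKM, against 3.58 to 10.8 FPKM. In Recovery week 7 the fibroblast (269 to 355 against 357 to 707 FPKM), leukocyte (204 to 246 against 305 to 581 FPKM) and neuronal sums (2.87 to 3.43 against 3.61 to 4.70 FPKM) also lay wholly below HF week 5. In Recovery week 19 these sums overlapped it. The part of these cells in the differences from HF week 5 was not tested.

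Camk2d did not overlap between these groups either, at 16.1 to 21.1 FPKM in Recovery week 19 against at most 15.96 FPKM in HF week 5, which makes 2 genes higher (14.1% of all genes tested) and 1 lower (12.7%) without overlap. Its log2 fold change was 0.27 (limma adjusted p value = 0.0618). Camk2b was at 2.84 to 5.18 FPKM (0.44, limma adjusted p value = 0.122), Camk2g at 6.28 to 10.1 FPKM (0.15, limma adjusted p value = 0.551) and Ppp3cb at 13.2 to 14.2 FPKM (0.16, limma adjusted p value = 0.272). Without the 3 libraries with high atrial genes, Rcan1 (-0.88), Hdac4 (1.11, limma adjusted p value = 0.0159) and Ppp3cb (0.23, limma adjusted p value = 0.0364) passed. Ppp3ca (-0.58, limma adjusted p value = 0.0632) and Camk2a (0.57, limma adjusted p value = 0.0638) did not pass there, nor without HF week 5 library 1 alone (limma adjusted p values of 0.151 and 0.101).

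The same was asked of the first recovery time. In Recovery week 7 against HF week 5, 3 genes were higher (8.05% of all genes tested) and 1 was lower (6.75%). Rcan1 was at 26.6 and 23.7 FPKM (log2 fold change -1.04, SE 0.190, limma adjusted p value = 0.00213). Camk2a was at 9.08 and 12.1 FPKM (0.78, limma adjusted p value = 0.0345), Camk2d at 20.3 and 19.05 FPKM (0.40, limma adjusted p value = 0.0403) and Hdac4 at 1.55 and 1.18 FPKM (1.28, limma adjusted p value = 0.0177). Ppp3ca did not pass (-0.62, limma adjusted p value = 0.177). Without Recovery week 7 library 1 or 2, Rcan1 passed, while the limma adjusted p values were 0.0718 and 0.285 for Camk2a, 0.214 and 0.136 for Camk2d and 0.140 and 0.0797 for Hdac4. Groups of 2 and 3 libraries did not overlap for 7 of the 10 genes upward (23.4% of all genes tested) and 2 downward (27%), and only Nfatc3 overlapped. Without the 3 libraries, Rcan1 and Hdac4 passed among these 4, while Camk2a (0.70, limma adjusted p value = 0.069) and Camk2d (0.32, limma adjusted p value = 0.0563) did not, and Ppp3cb (0.44, limma adjusted p value = 0.00438) passed. Without HF week 5 library 1 alone, Hdac4 was at 1.21 (limma adjusted p value = 0.0628).

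Recovered and untreated hearts were compared at week 19. By limma, 0 of the 10 genes passed at the adjusted p value, where 0.0235% of all genes tested did, and 0 passed at an unadjusted p value under 0.05, where 2.88% did. All 10 overlapped between the groups, where 1.17% of all genes tested did not. The log2 fold change was -0.05 for Rcan1 (95% confidence interval -0.32 to 0.23), -0.16 for Ppp3ca (-0.59 to 0.28), -0.07 for Camk2a (-0.42 to 0.27) and 0.13 for Hdac4 (-0.36 to 0.63). Camk2b, at 4.06 ± 0.892 and 5.19 ± 0.935 FPKM (SD, n = 5 each), had the largest size, -0.32 (-0.69 to 0.04), followed by Hdac9 at -0.29 (-0.64 to 0.07). These intervals leave room for differences of the size seen for some genes in HF week 5. In both groups library 5 had the lowest Camk2a, Camk2g and Hdac4 and the highest Nfatc3 of its group.

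The earlier recovery weeks were compared with the same controls, which were older, so recovery and age cannot be told apart here. At the adjusted p value 0 of the 10 genes passed in limma at week 7 (0.047% of all genes tested), week 9 (0.0549%), week 11 (0.149%) and week 13 (0.0784%). At an unadjusted p value under 0.05 the counts were 0, 1, 3 and 2 genes, beside 3.61%, 3.6%, 8.45% and 10.4% of all genes tested. The groups did not overlap for 1 gene that was lower at week 7 (7.69% of all genes tested), 2 at week 9 (7.87%), 2 at week 11 (4.21%) and 4 at week 13 (13.6%), and for 1 that was higher at week 13 (13.1%). In week 7 the gene was Rcan1, at 26.6 and 23.7 FPKM (-0.31). In week 9 Ppp3cb was at 12.5 and 12.1 FPKM and below all controls (-0.26), the gene with an unadjusted p value under 0.05, and Camk2d at 17.5 and 17.3 FPKM also lay below them (-0.19). In week 11 the 3 genes with such an unadjusted p value were CaMKII genes. Camk2b was at 3.03, 3.15 and 2.25 FPKM there, all below the controls, and its log2 fold change was -0.77 (adjusted p value = 0.157), beside -0.76 in HF week 5. Camk2a was at 7.15, 8.21 and 5.09 FPKM (-0.55, adjusted p value = 0.343) and Camk2g at 6.91, 7.58 and 5.49 FPKM (-0.48, adjusted p value = 0.34). Ppp3cb at 12.6 to 13.1 FPKM also lay below all controls (-0.20). The fibroblast and leukocyte sums of these libraries were 411 to 679 FPKM and 455 to 647 FPKM, above all controls, and their part was not tested. In week 13 Ppp3ca was at 15.8 and 14.5 FPKM, above all controls (0.61, adjusted p value = 0.453), and Camk2b at 3.46 FPKM in both libraries, below all controls (-0.51, adjusted p value = 0.459). Rcan1 at 24.4 and 25.5 FPKM (-0.32), Nfatc3 at 2.30 and 2.41 FPKM (-0.17) and Camk2d at 17.8 and 17.5 FPKM (-0.17) lay below all controls as well. In these libraries the fibroblast sum was 389 and 504 FPKM and the leukocyte sum 541 and 711 FPKM, again above all controls, and their part was not tested.

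By mean level, the order of groups for Rcan1 was HF week 3 (95.96 FPKM), HF week 5 (52.4), Recovery week 11 (34.2), Recovery week 9 (31.8), Control week 19 (31.4), Recovery week 19 (30.5), Recovery week 7 (25.2) and Recovery week 13 (25.0). The step from week 5 to the controls passed the test. That from week 3 to week 5 passed with all libraries, but not without HF week 3 library 1 or in a fit of these groups alone. None of the recovery groups passed against the controls, and those of weeks 7 and 13 lay wholly below them. Hdac4 ran from 1.37 FPKM in Recovery week 7 and 1.33 FPKM in Recovery week 19 through 1.15 FPKM in the controls, 0.904 FPKM in week 9, 0.738 FPKM in week 11 and 0.706 FPKM in week 13 to 0.268 FPKM in HF week 5. HF week 3, with the listed 0 and 0.250 FPKM, stood at the end of this order. The neighbours from week 7 to week 13 did not differ from the controls beyond the spread, nor did HF week 3 from HF week 5 (adjusted p value = 0.495, with the listed 0 included).

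Ratios within a library, in which its scaling cancels, were compared for related genes with two-sided exact permutation tests, 15 in all. With 3 against 5 libraries the smallest p value these can give is 0.0357. The log2 ratio of Ppp3ca to Ppp3cb was 0.38 ± 0.432 (SD) in HF week 5 and -0.61 ± 0.228 in the controls, so the alpha gene was the higher one in 2 of 3 HF week 5 libraries and in 0 of 5 controls. The difference of 0.99 and the difference of -1.03 between Recovery week 19 and HF week 5 each gave that smallest exact p value (0.134 after Benjamini-Hochberg adjustment). Ppp3ca made up 63.6% and 84.8% of the summed Ppp3ca and Ppp3cb FPKM in HF week 3 and 35.3% to 45.3% in the controls. The log2 ratio of Hdac4 to Hdac9 was -2.91 ± 0.241 in HF week 5, -0.96 ± 0.834 in the controls and -0.41 ± 0.432 in Recovery week 19. Both comparisons with HF week 5 again gave the smallest exact p value (adjusted p value = 0.134). Without HF week 5 library 1, the differences of HF week 5 from the controls were 0.81 for Ppp3ca to Ppp3cb and -1.81 for Hdac4 to Hdac9, and those of Recovery week 19 from HF week 5 were -0.85 and 2.36. No p value is given for these, since 2 libraries against 5 cannot reach the threshold even before adjustment.

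The 4 Camk2 genes summed to 27.7 to 36.1 FPKM in HF week 5, 24.9 and 25.1 FPKM in HF week 3, 36.4 to 47.7 FPKM in the controls and 34.4 to 47.2 FPKM in Recovery week 19. Camk2d held 47.7% ± 3.61 of this sum in HF week 5 and 44.8% ± 3.29 in the controls, a difference below the spread (exact permutation p value = 0.25). In HF week 3 it held 69.4% and 52.3%, and the share of Camk2a was 9.81% and 13.6% there, against 19.2% to 24.4% in the controls. Rcan1 relative to the sum of Ppp3ca and Ppp3cb was at a log2 ratio of 0.90 ± 0.492 in HF week 5 and 0.34 ± 0.188 in the controls (exact permutation p value = 0.107). None of the 5 ratios differed between Recovery week 19 and the controls beyond the spread, with exact permutation p values from 0.262 to 0.897.

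**Figure D3:**
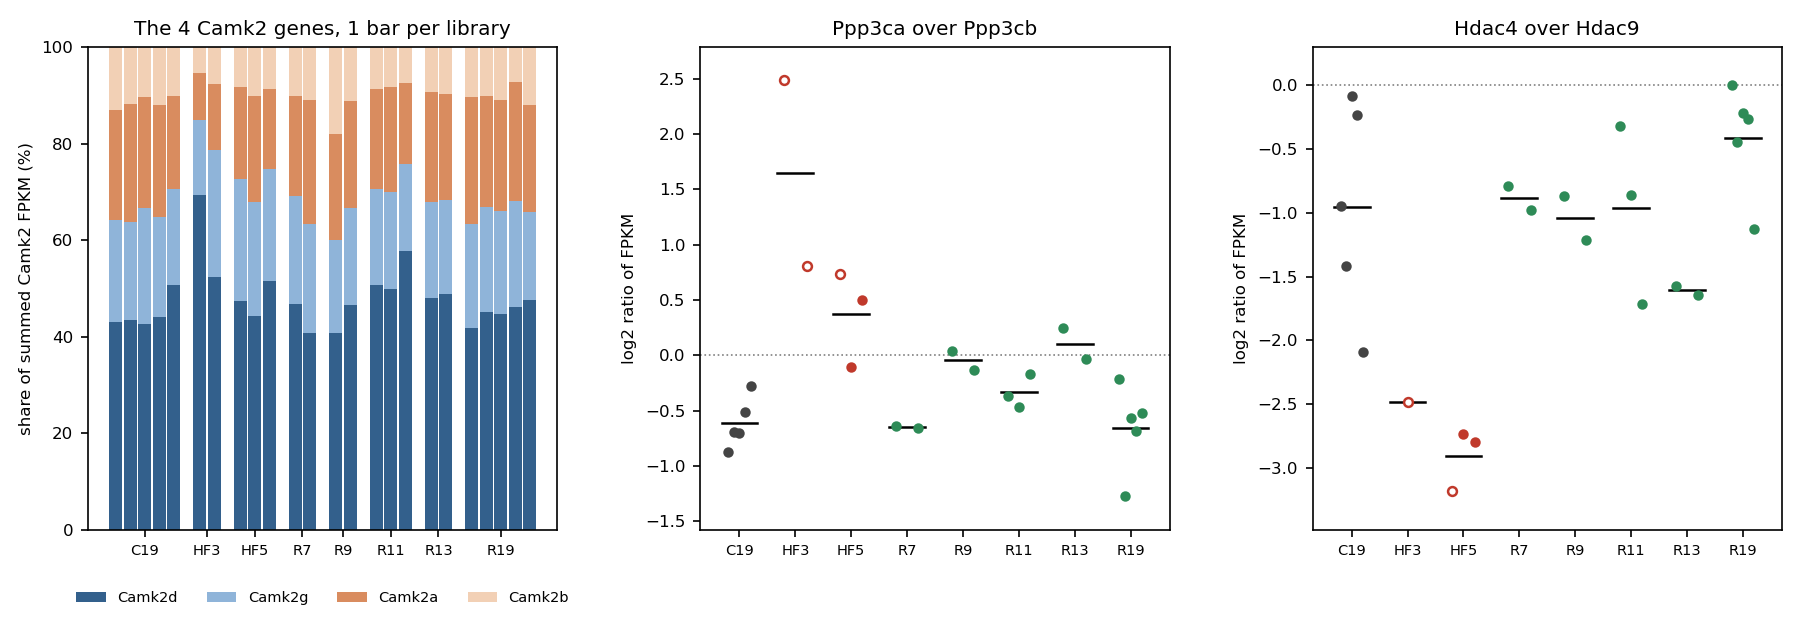
Left, share of each Camk2 gene in the summed Camk2 FPKM (vertical axis, percent, 1 bar for each of the 24 libraries); middle and right, log2 ratio of Ppp3ca to Ppp3cb and of Hdac4 to Hdac9 in FPKM, with points for libraries, bars for group means and open points for the libraries with high atrial genes. HF week 3 library 1 is missing on the right because Hdac4 is listed at 0, and the HF week 5 ratios of Hdac4 to Hdac9 average -2.91 against -0.96 in the controls.

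The other genes of the calcineurin and NFAT pathway were read from a list of 21 genes, of which 17 were tested. In HF week 5 against the controls 3 were higher and 5 lower, where 11.6% and 12.4% of all genes tested were, with a median log2 fold change of -0.10 beside 0.04 over all genes tested. Without the 3 libraries with high atrial genes 2 were higher and 5 lower, where 1115 and 1430 of 12591 genes tested were. The calcineurin subunits of this list that fell were Ppp3cc, the gamma catalytic subunit (-0.63, limma adjusted p value = 0.00333), and Ppp3r1, the regulatory subunit (-0.42, limma adjusted p value = 0.000828). Ppp3r1 was at 13.5 ± 0.36 FPKM in HF week 5 (SD, n = 3) and 18.2 ± 0.994 FPKM in the controls (SD, n = 5). Nfatc4, an NFAT factor known from hypertrophy, rose by 0.92 (limma adjusted p value = 0.00307), and Nfat5, a relative that answers to tonicity rather than calcineurin, by 0.52. Cabin1, which encodes a calcineurin-binding inhibitor, rose by 0.52 as well. Gsk3a, a kinase that sends NFAT out of the nucleus, changed by -0.55, Akap6, a scaffold for calcineurin at the nuclear envelope, by -0.43, and Fhl2, a LIM protein that binds calcineurin, by -1.07. Of the genes related to Rcan1, Rcan2 (-0.18) and Rcan3 (-0.06) did not pass. In Recovery week 19 against HF week 5 Ppp3cc, Ppp3r1, Gsk3a and Fhl2 were higher and Nfatc4, Nfat5 and Cabin1 lower, which is 4 and 3 of 17 beside 12.3% and 12% of all genes tested.

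Of 16 genes of calmodulin and other calmodulin-dependent kinases, 13 were tested, and 1 was higher and 3 lower in HF week 5, beside the same 11.6% and 12.4% of all genes tested. Calm3, a calmodulin gene, was at 62.3 ± 8.17 FPKM against 104 ± 5.93 FPKM (-0.74, limma adjusted p value = 0.00085), while Calm2 (0.21) did not pass. Mylk3, the cardiac myosin light chain kinase (-0.76), and Pnck, a kinase of the CaMKI family (-0.52), were the other genes that fell. Camk1d was higher at the threshold (0.85, limma adjusted p value = 0.0496). Without the 3 libraries with high atrial genes 0 genes of this list were higher, where 1115 of 12591 genes tested were. In Recovery week 19 against HF week 5 Calm3, Mylk3 and Pnck were higher and 0 genes were lower in limma, or 3 and 0 of 13 beside the same shares of all genes tested.

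Of 25 genes of other class II deacetylases, MEF2 and their partners, 24 were tested, and 2 were higher and 6 lower in HF week 5 (median -0.03), beside 11.6% and 12.4% of all genes tested. Mef2d, a MEF2 factor, was at 8.30 ± 2.97 FPKM against 19.2 ± 5.35 FPKM (-1.16, limma adjusted p value = 0.0131). Hdac3 (-0.42) and Ncor1 (-0.38), parts of the corepressor complex that class IIa deacetylases bind, also fell, as did Ywhag (-0.62), a 14-3-3 protein, Camta1 (-0.47), a calmodulin-binding transcription activator, and Dnajb5 (-0.53), a chaperone that binds HDAC4. Hdac10, a class IIb deacetylase (0.55), and Sfn, another 14-3-3 protein (0.65), rose. The class IIa genes Hdac5 (0.30) and Hdac7 (-0.15) did not pass. Without the 3 libraries the counts of this list were 3 higher and 3 lower, where 1115 and 1430 of 12591 genes tested were. In Recovery week 19 against HF week 5, Mef2d, Hdac3, Ywhag and Camta1 rose and Hdac10 and Sfn fell. This is 4 and 2 of 24 beside 12.3% and 12% of all genes tested. Without the 3 libraries the counts were 3 higher and 5 lower, where 1496 and 1300 of 12591 genes tested were.

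Among 6 genes of calcium handling on whose products CaMKII acts, 4 fell in HF week 5 and 0 rose in limma, with a median of -0.79 beside 0.04 over all genes tested, of which 12.4% fell and 11.6% rose. Among them were Pln, the inhibitor of the calcium pump (-0.87), Atp2a2, that pump (-0.70, limma adjusted p value = 0.00388), and Cacnb2, a calcium channel subunit (-1.35). Ryr2, the calcium release channel (-0.41), and Cacna1c (-0.56) did not pass. Recovery week 19 showed higher levels of all 4 against HF week 5, where 12.3% of all genes tested were higher. But without the 3 libraries with high atrial genes 3 of the 6 fell and 1 rose again, where 1430 fell and 1496 rose again of 12591 genes tested. Of 7 hypertrophic genes downstream of NFAT and MEF2, 4 rose and 0 fell in limma, beside the same 11.6% and 12.4% of all genes tested. Their median was 2.09 beside 0.04. Without those libraries 4 rose as well, where 1115 of 12591 genes tested did. Nppb, a natriuretic peptide, was at 1476 ± 280 FPKM against 363 ± 151 FPKM (2.09, limma adjusted p value = 0.00165). Acta1 (2.18) and Myh7 (2.76), fetal contractile genes, and Nppa (4.81), the atrial natriuretic peptide, were the others. Nppa had a spread larger than its mean in HF week 5, at 15439 ± 23006 FPKM (SD, n = 3), and is listed at 0 in both HF week 3 libraries.

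**Figure D4:**
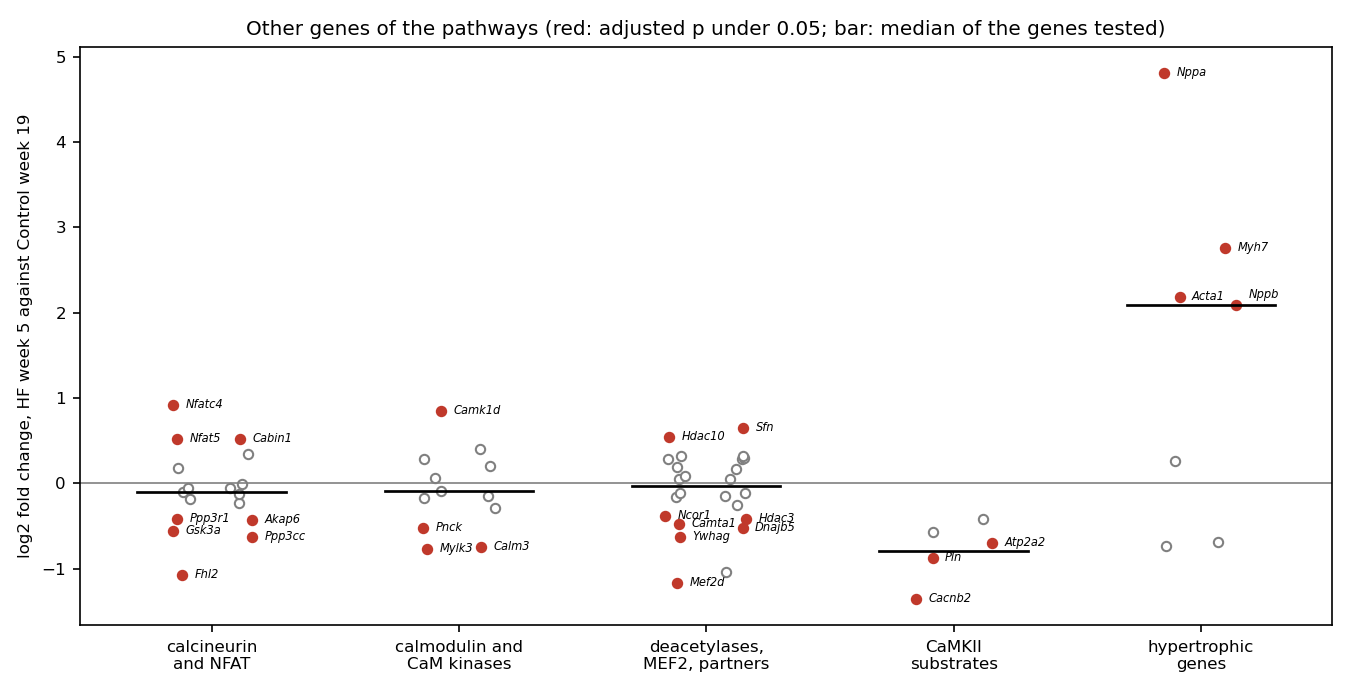
Log2 fold change of HF week 5 against Control week 19 (vertical axis, log2 of FPKM + 0.5) for tested genes of the 5 pathway lists, 1 point per gene reported here; filled red points have an adjusted p value under 0.05 and bars are medians over all tested genes of each list. Medians run from -0.79 for the calcium handling genes to 2.09 for the hypertrophic genes, and the other 3 lists lie between -0.10 and -0.03.

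Over the 24 libraries, the gene with the pattern most like that of Camk2b among all genes tested was Camk2a (r = 0.88 on log2 values). Camk2a itself was most like Kcnj11, a subunit of the ATP-sensitive potassium channel (r = 0.96), Camk2d was most like Sgcb (r = 0.92) with Akap6 among its first 3 (r = 0.91) and Camk2g like Rbfox2 (r = 0.95). Rcan1 was most like Ckap4 at r = 0.90 and 0.76 without the HF week 3 libraries, and Hdac9 reached no more than 0.77, with Gadd45a. These values describe libraries that share groups. The median absolute r with all genes tested was 0.488 for Camk2a, 0.487 for Rcan1 and 0.137 for Hdac9.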

How the data were processed

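Paired-end sequencing was made of poly(A)-selected RNA from mouse hearts. The authors aligned the reads with TopHat to mouse build MGSCv37 (mm9 per the labels) and deposited FPKM from Cuffdiff, 1 column per library, for 29955 gene symbols. The annotation and the scaling between libraries are not given in the sources used here, and differences that arose in those steps remain in the values. The week in a column's name gave its group, and library numbers follow column order and cannot be tied to single samples. The table holds 5 columns named for week 5 controls, whereas 4 such samples are labelled, and these 5 columns were left out. Recovery week 9 has 2 columns for 3 labelled samples, and both columns were used. Control week 19 therefore served as control throughout.

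The 12759 genes whose mean reached 0.5 FPKM were fitted as log2(FPKM + 0.5) by limma 3.58.1 (R 4.3.3), using 8 group means over 24 libraries (16 residual degrees of freedom) and eBayes with a trend. Tests were two-sided, and p values were adjusted by Benjamini-Hochberg over all genes tested, with a threshold of 0.05. Ratios between genes were compared by exact permutation (scipy 1.17.1). Figures used matplotlib 3.10.9 and tables used pandas 2.3.3 with numpy 2.4.6 under Python 3.11.15, and both procedures were tested on simulated data. The depth is known only relative to 1 library, so errors are spreads between libraries. The 10 genes, the pathway lists and the marker lists were chosen with earlier results of these data known. All 10 genes are named, and of the lists those past the threshold in HF week 5 against control or Recovery week 19 against HF week 5, with related genes named after their values were seen. Genes most like each of the 10 are the 3 with the highest r over the 24 libraries. Some genes that these rules name are not reported here. Alternatives were other pseudocounts (0.1 and 1), no filter or a mean of at least 1, fits of only the groups compared, median centring, quantile normalization, robust eBayes and leaving out libraries. The fit without the 3 libraries with high atrial genes was chosen after seeing the data. Promoter windows came from RefSeq on GRCm38.p6.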

Additional observations from a re-analysis of the deposited data

Results flagged for a closer look

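Of 20 pairs of a gene and a group of 5 libraries, in Control week 19 and Recovery week 19, 2 had a library far from the other 4 by Dixon's test, where chance gives about 1 in 20. Camk2a was lowest at 6.98 FPKM and Nfatc3 highest at 3.25 FPKM, both in Control week 19 library 5. That library also had the highest fibroblast (360 FPKM), endothelial (327 FPKM) and leukocyte (425 FPKM) sums of the controls, and their part was not tested. Left out, it moved the log2 fold change of Camk2a in HF week 5 from -0.72 to -0.84 and brought Ppp3ca to 0.76 (limma adjusted p value = 0.029).

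HF week 3 and HF week 5 differed against the same controls for 3 of the 10 genes in limma, where 8.28% of all genes tested were higher and 13.1% lower. The differences were 0.84 for Rcan1, -0.47 for Ppp3cb and -0.91 for Camk2a on the log2 scale. Both HF week 3 libraries and 1 of the 3 HF week 5 libraries have the high atrial genes, and their part in these differences was not tested. Without HF week 3 library 1, the differences of Rcan1, Ppp3cb and Camk2a were 0.51, -0.17 and -0.71, and none passed.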

How the results depend on the processing

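No paired analysis was made, because mice were killed at the time point of their group and hearts of different groups come from different mice. Counts of the 10 genes moved as follows, and the cause was not tested. In HF week 5 against Control week 19, 2 genes were higher in place of 1 with a pseudocount of 1, a mean of at least 1 FPKM, quantile normalization and without the HF week 3 libraries, the second being Ppp3ca. Over all genes tested, 1513 of 12759, 1346 of 11453, 1430 of 12759 and 2155 of 12674 were higher in those fits, in place of 1482 of 12759. In Recovery week 19 against HF week 5, 1 gene was higher and 1 lower without a filter, 1 was higher with a mean of at least 1 FPKM, and 1 was lower without the 3 libraries with high atrial genes and in a fit of these groups alone. Over all genes tested, 1231 were higher and 1293 lower of 29955 without a filter, and 1526 of 11453 were higher with that mean. Lower were 1300 of 12591 without the 3 libraries and 1124 of 12852 in the fit of these groups. The main fit had 1567 higher and 1525 lower of 12759. Hdac4 is not tested at a mean of at least 1 FPKM. For HF week 3 against HF week 5, a fit of these groups alone called 0 of the 10 genes upward and 0 downward, and 6 and 2 of all 13113 genes tested. In Recovery week 7 against HF week 5, 1 gene was higher without a filter and in a fit of these groups alone. Over all genes tested, 700 of 29955 and 178 of 12924 were higher there, in place of 1027 of 12759. The number of genes that differed among groups was 3 in place of 8 without the 3 libraries, where 14.2% of all genes tested did in place of 38.6%.

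With 1 library left out at a time, 1 to 2 genes were higher and 0 to 4 lower for HF week 5 against Control week 19, with the 0 reached without HF week 5 library 1, where 535 genes were higher and 820 lower over all 12704 tested, in place of 1482 and 1580 of 12759. The counts were 1 to 3 higher and 1 to 2 lower in Recovery week 19 against HF week 5. Over all genes tested, 876 to 1626 were higher and 669 to 1629 lower in those fits. No such counts are given for groups of 2 libraries, where a fit would leave 1. The comparisons of Recovery weeks 11 and 19 with the controls had 0 genes in every such fit.

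The genes that changed sign under an alternative were called neither with all libraries nor under that alternative. Without the 3 libraries, Hdac9 in HF week 5 was at 0.020. Under quantile normalization, Nfatc3 was at -0.017 in Recovery week 19 against Control week 19 and at 0.027 in HF week 3 against HF week 5, Camk2d and Hdac4 in that last comparison were at -0.0092 and 0.32, Camk2d was at 0.014 in Recovery week 7 and Rcan1 at -0.0082 in Recovery week 9 against Control week 19. With each library left out in turn, log2 fold changes ranged in HF week 5 against Control week 19 from -0.15 to 0.037 for Hdac9. In Recovery week 19 against Control week 19 they ranged from -0.13 to 0.017 for Rcan1, -0.054 to 0.060 for Nfatc3 and -0.045 to 0.37 for Hdac4. In HF week 3 against HF week 5 they ranged from -0.16 to 0.15 for Nfatc3, -0.16 to 0.22 for Camk2d, -0.61 to -0.031 for Hdac4 and -0.38 to 0.044 for Hdac9, and in Recovery week 7 against HF week 5 from -0.32 to 0.025 for Nfatc3. Against Control week 19 they ranged in Recovery week 7 from -0.012 to 0.14 for Ppp3ca, -0.12 to 0.22 for Nfatc3, -0.13 to 0.26 for Camk2a and -0.063 to 0.029 for Camk2d, in Recovery week 9 from -0.057 to 0.10 for Rcan1 and -0.26 to 0.55 for Camk2b, in Recovery week 11 from -0.025 to 0.16 for Ppp3ca and in Recovery week 13 from -0.040 to 0.14 for Hdac9. The ratios between Recovery week 19 and Control week 19 ranged from -0.15 to 0.11 for Ppp3ca to Ppp3cb, from -0.044 to 0.089 for Camk2d to Camk2g, and from -0.39 to 1.68 percentage points for the share of Camk2d.

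The depth behind single values is unknown, so the counting error of low genes such as Hdac4 could not be given. Groups of 2 libraries borrow their spread from the others.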

Other observations

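The pathway lists were also read in HF week 3 against the controls, where 23.1% of all genes tested were higher and 27.6% lower. All 6 calcium handling genes were lower, with a median log2 fold change of -1.59 beside -0.05 over all genes tested. Of the 24 deacetylase, MEF2 and partner genes tested, 7 were higher and 10 lower, and of the 17 calcineurin and NFAT genes 3 were higher and 7 lower. Of the 13 genes of calmodulin and its kinases 1 was higher and 2 were lower, and of the 7 hypertrophic genes 2 were higher and 3 lower, with Nppa, listed at 0 in both libraries, among the latter. Atp2a2, the calcium pump, was at 344 and 646 FPKM there. Both libraries have the high atrial genes, whose part was not tested. In Recovery week 7 against HF week 5, the subunits Ppp3cc (0.69, limma adjusted p value = 0.0126) and Ppp3r1 (0.45, limma adjusted p value = 0.00431) were higher, among 4 higher and 0 lower of the 17 calcineurin and NFAT genes in limma, beside 8.05% and 6.75% of all genes tested. In Recovery week 19 against Control week 19, 0 genes of the 5 lists passed in limma.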
